A study of Mus musculus with 6 samples.

Results

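Imprinted genes are expressed mainly from the copy inherited from 1 parent. The choice is set in the germ line by DNA methylation at control regions, is kept through cell divisions, and often covers a cluster of neighbouring genes in which paternally and maternally expressed members alternate. Many imprinted genes act on growth, and their transcript levels are known to vary between embryonic stem (ES) cell lines and cultures. The 45 mouse imprinted genes described here are well-known members of such clusters, and every probe set that the platform annotation gives to a member's symbol alone was read. This gave 113 of the 45037 probe sets on the array, for 42 genes out of 18193. Rtl1 and Zrsr1 had no such probe set, and the probe set of H19 is also annotated to another gene and was left out. The clusters and the expressed parental alleles come from general knowledge of the mouse. The arrays measure total transcript and do not separate the alleles.

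The study compared ES cells of the 129SV strain that were wild-type with ES cells carrying a knockout of Med23, which encodes a subunit of Mediator, the large complex through which bound transcription factors reach RNA polymerase II. Each genotype had 3 arrays from cultures called biological replicates. All cells had been given fresh complete ES cell medium and were collected in Trizol 24 hours later. The sources used here do not say how the knockout was made or whether each genotype is 1 line or clone. The p-values therefore set each difference against the spread between these cultures, and do not cover variation between independent lines. Values are log2 expression levels as deposited, differences are knockout minus wild-type, and a gene was read at its probe set with the highest mean.

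The 10 pluripotency markers examined to check the label ES cell were all above the median of all probe sets (4.62), here called the array median. Their mean level was 11.87 to 12.03 (log2) on the wild-type arrays and at least 11.98 on the knockout arrays. Of the 10, 2 passed the test as lower, Fgf4 (-0.37) and Tdgf1 (-0.28), and none as higher. Over all genes, 10.4% passed as lower and 8.53% as higher. Med23 itself fell from 8.88 ± 0.05 to 7.37 ± 0.04 (SD, n = 3 each). Arrays correlated at 0.993 to 0.998 within a genotype and at 0.988 to 0.991 between genotypes. Wild-type replicate 1 stood apart, where 752 probe sets read under the mean of the other wild-type arrays by 2-fold or more. The Y-linked genes also separated the lines. The 7 measured had a mean level of 3.28 to 3.47 on the wild-type arrays, below the array median. On the knockout arrays it was 6.13 to 6.39. Of the 7, 5 passed as higher and 2 did not pass. Eif2s3y read 3.04 ± 0.37 in wild-type cells and 9.87 ± 0.15 in the knockout (SD, n = 3 each, log2 fold change 6.83). Xist, on the X chromosome, read 6.76 ± 0.27 and 7.27 ± 0.16 and did not pass. An effect of Med23 therefore cannot be told apart from other differences between the lines. Of 18 endoderm markers, 15 fell and none rose, with a mean level of 7.14 to 7.48 on the wild-type arrays and 5.51 to 5.59 on the knockout arrays. The part of endoderm-like cells in the results for imprinted genes was not tested. In bulk RNA, fewer cells of a type and less RNA per cell cannot be told apart.

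Of the 42 measured imprinted genes, 14 fell and 8 rose in the knockout at an adjusted p under 0.05 (limma, Benjamini-Hochberg over all probe sets), and 20 did not pass. Over all genes, 10.4% fell and 8.53% rose, 18.9% in all. The imprinted genes read higher than the background: 7 of the 42 were below the array median in both groups, against 6367 of 18193 genes. A comparison at equal level was not made. Peg3, Nnat, Plagl1 and Igf2 fell at least 2-fold and Grb10 rose at least 2-fold, against 2.61% of all genes past both limits. The groups did not overlap for 30 of the 42, against 40.9% of all genes. By probe set, 29 of 113 fell and 13 rose, against 7.43% and 6.69% of all probe sets. Leaving out any 1 of the knockout arrays brought the genes lower to 9, and leaving out knockout replicate 2 or 3 brought the genes higher to 5. Without wild-type replicate 1 the numbers were 16 lower and 8 higher.

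**Figure D1:**
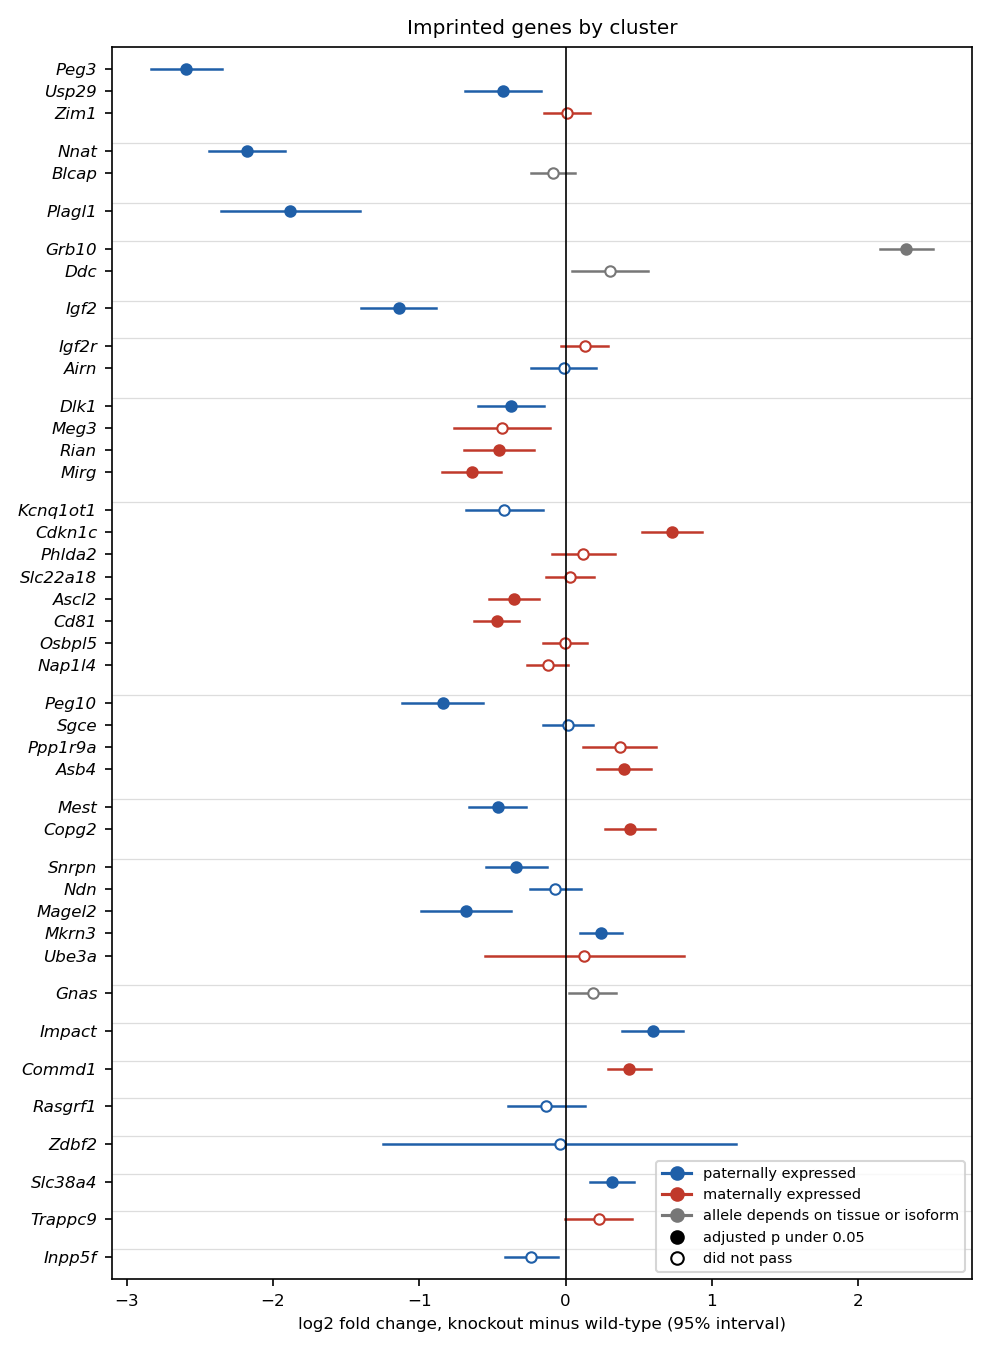
Log2 fold change (knockout minus wild-type, horizontal axis) of the 42 measured imprinted genes, ordered by cluster with a thin line between clusters; points are estimates, bars 95% intervals from the limma fit, colours the expressed parental allele, and filled points passed at an adjusted p under 0.05. Peg3, Nnat, Plagl1 and Igf2 lie below -1, Grb10 lies above 2, and Zdbf2 has the widest interval, from -1.25 to 1.17.

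The largest falls were those of paternally expressed genes. Peg3, which encodes a large zinc finger protein, measured 11.50, 11.87 and 11.79 (log2) on wild-type arrays 1, 2 and 3 and 9.16, 9.17 and 9.07 on the knockout arrays. The groups were far apart, with every knockout array more than 2 log2 units below every wild-type array. The fall was 6.02-fold (log2 fold change -2.59, SE 0.10, limma adjusted p = 2.53e-05). Another 2 Peg3 probe sets gave log2 fold changes of -2.63 and -2.63, while the remaining 2 lay between 2.09 and 2.65 (log2) on every array and did not pass. Usp29, a ubiquitin protease gene that starts next to Peg3 on the opposite strand, read 3.63, 3.95 and 3.98 in wild-type cells and 3.39, 3.36 and 3.54 in the knockout, all below the array median. On the log2 scale it changed by -0.43 (SE 0.11), with a limma adjusted p of 0.0435. The other Usp29 probe set, also below the array median, gave 0.02 and did not pass (adjusted p = 0.864). The Usp29 call ended when either wild-type replicate 2 or 3 or any knockout array was left out, with log2 fold changes of -0.38, -0.36, -0.41, -0.39 and -0.48 and adjusted p of 0.133, 0.118, 0.131, 0.143 and 0.0716 for wild-type 2 and 3 and knockout 1, 2 and 3 in turn. The maternally expressed zinc finger gene of the cluster, Zim1, was near 3 in both groups (3.05 ± 0.07 and 3.06 ± 0.05, SD, n = 3 each) and did not pass.

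Nnat encodes neuronatin, a small membrane proteolipid, and lies inside an intron of Blcap. Nnat measured 5.999, 5.75 and 6.11 (log2) on the wild-type arrays and 3.91, 3.71 and 3.70 on the knockout arrays, which places the knockout below the array median. The fall was 4.52-fold (log2 fold change -2.18, SE 0.11, limma adjusted p = 5.61e-05), a size that rests on these low knockout values. Its host gene Blcap stayed within a narrow range, from 8.38 to 8.50 in wild-type cells and from 8.31 to 8.37 in the knockout (log2 fold change -0.08, 95% interval -0.23 to 0.07).

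Plagl1, a zinc finger transcription factor gene that restrains growth, measured 6.73, 7.25 and 7.56 in wild-type cells and 5.23, 5.19 and 5.48 in the knockout. All knockout arrays were lower, and wild-type replicate 1 was the lowest of its group. The fall was 3.68-fold (log2 fold change -1.88, SE 0.20, limma adjusted p = 0.0012). This rests on 1 of 3 probe sets, of a type that can match other transcripts (suffix _x_at); the others lay between 2.65 and 3.72 (log2) and did not pass.

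Igf2, the fetal insulin-like growth factor gene, measured 7.25, 7.11 and 7.24 in wild-type cells and 6.26, 5.87 and 6.05 in the knockout, with no overlap. The fall was 2.20-fold (log2 fold change -1.14, SE 0.11, limma adjusted p = 0.000709). Its other probe set stayed between 2.88 and 3.01. The receptor gene Igf2r, whose product clears this growth factor, did not pass at 8.40 ± 0.06 and 8.53 ± 0.06 (SD, n = 3 each), nor did Airn, the long non-coding RNA that silences Igf2r on the paternal copy, at 4.43 ± 0.15 and 4.42 ± 0.09.

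Grb10 went the other way. It encodes an adaptor protein that binds the insulin and insulin-like growth factor receptors and restrains growth, and is expressed from the maternal copy in most tissues and from the paternal copy in neurons. The wild-type arrays read 7.02, 7.004 and 6.82 (log2) and the knockout arrays 9.23, 9.27 and 9.33. Every knockout array was thus above every wild-type array by more than 2 log2 units. The rise was 5.03-fold (log2 fold change 2.33, SE 0.08, limma adjusted p = 1.55e-05). Another probe set rose from 3.90 to 4.47 (adjusted p = 0.0263) and the last did not pass, both with values mostly below the array median. Ddc, the neighbouring gene for an aromatic amino acid decarboxylase, measured 9.35, 9.31 and 8.95 in wild-type cells and 9.50, 9.49 and 9.54 in the knockout, a log2 fold change of 0.30 that did not pass (95% interval 0.04 to 0.57, adjusted p = 0.13).

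**Figure D2:**
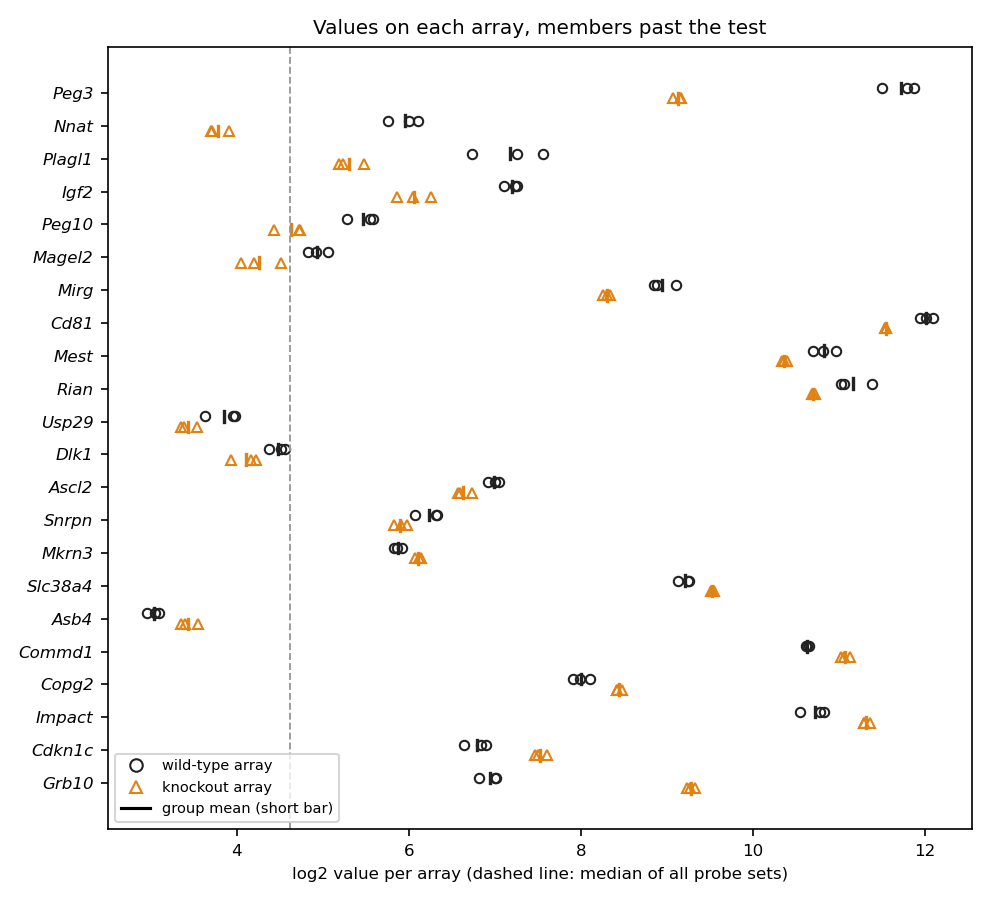
Log2 value on each of the 6 arrays for the 22 imprinted genes past the test, ordered from the largest fall to the largest rise; circles are wild-type arrays, triangles knockout arrays, short bars the group means of 3 arrays, and the dashed line the array median (4.62). The groups do not overlap in any row, and Usp29, Dlk1 and Asb4 lie wholly left of the dashed line.

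Promoter sequences, 250 bases before to 50 after an annotated start, are shown for Peg3, Nnat, Plagl1 and Grb10, which had the largest changes. Mest was added by choice and not by size of change (log2 fold change -0.46), so the printed windows do not show how often the motif occurs. Imprinted promoters are CpG-rich, and several lie in the regions whose methylation differs between the parental copies. They come from RefSeq (GRCm38.p6), which matched 37 of the 45 genes. Capitals mark TGCCGC, the core motif recognised by the imprint-protecting zinc finger protein ZFP57 when methylated, searched on both strands (GCGGCA is the same site on the other strand). The Peg3 window overlaps that of Usp29 by 263 bases on the opposite strand. The part of this overlap in their changes was not tested.
Peg3, chr7:6730370-6730669, minus strand: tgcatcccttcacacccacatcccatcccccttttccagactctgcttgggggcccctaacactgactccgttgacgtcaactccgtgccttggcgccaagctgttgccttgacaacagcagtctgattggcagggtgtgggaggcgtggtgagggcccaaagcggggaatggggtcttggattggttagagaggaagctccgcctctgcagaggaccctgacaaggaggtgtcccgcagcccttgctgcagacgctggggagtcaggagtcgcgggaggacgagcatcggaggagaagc
Nnat, chr2:157559828-157560127, plus strand: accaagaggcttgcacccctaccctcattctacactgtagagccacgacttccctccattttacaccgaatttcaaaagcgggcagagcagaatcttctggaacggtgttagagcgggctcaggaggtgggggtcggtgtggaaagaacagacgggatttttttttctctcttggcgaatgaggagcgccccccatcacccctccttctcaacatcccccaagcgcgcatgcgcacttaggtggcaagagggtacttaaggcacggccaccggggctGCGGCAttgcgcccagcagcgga
Plagl1, chr10:13090582-13090881, plus strand: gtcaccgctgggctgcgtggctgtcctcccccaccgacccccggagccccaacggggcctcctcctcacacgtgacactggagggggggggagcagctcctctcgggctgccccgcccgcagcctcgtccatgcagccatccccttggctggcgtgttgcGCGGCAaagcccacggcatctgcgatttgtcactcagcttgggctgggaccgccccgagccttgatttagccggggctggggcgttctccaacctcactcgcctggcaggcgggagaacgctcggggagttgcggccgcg
Mest, chr6:30737800-30738099, plus strand: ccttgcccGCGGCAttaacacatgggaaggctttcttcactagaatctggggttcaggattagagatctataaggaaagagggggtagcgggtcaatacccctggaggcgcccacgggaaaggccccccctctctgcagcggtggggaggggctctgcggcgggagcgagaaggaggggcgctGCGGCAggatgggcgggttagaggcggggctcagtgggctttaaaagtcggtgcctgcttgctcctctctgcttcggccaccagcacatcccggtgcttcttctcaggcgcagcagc
Grb10, chr11:12037371-12037670, minus strand: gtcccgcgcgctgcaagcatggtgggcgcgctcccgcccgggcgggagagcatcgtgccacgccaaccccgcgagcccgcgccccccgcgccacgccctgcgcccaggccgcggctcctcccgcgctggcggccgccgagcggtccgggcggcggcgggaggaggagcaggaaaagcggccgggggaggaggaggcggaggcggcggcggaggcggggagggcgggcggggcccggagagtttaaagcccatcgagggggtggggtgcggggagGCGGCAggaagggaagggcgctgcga

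The motif occurred in 13 of 59 promoter windows of imprinted genes (22%) and in 11.6% of all 32851 windows of that length. The windows of imprinted genes held a median of 14 CpG dinucleotides against 7 over all windows. The motif itself contains a CpG, and a comparison at equal CpG content was not made. Some windows of 1 gene overlap, as for Mest and Gnas. Imprinted genes had 59 windows for 37 genes, and all genes 32851 for 27025. Among the genes with both a promoter window and a measurement, 5 of 13 that fell, 3 of 6 that rose and 4 of 17 that did not pass had the motif in at least 1 window, against 13.1% of all 27025 genes with a window. Of the windows printed, Mest has 2 matches, Nnat, Plagl1 and Grb10 have 1 each and Peg3 has none. The printed Grb10 window is the richest of these in CpG, with 45. Other windows of these genes are not printed. That of Grb10 at chr11:12027922-12028221 and that of Mest at chr6:30733256-30733555 have no match. Igf2, which also fell at least 2-fold, is not printed. Its window at chr7:142661222-142661521 has 1 match and its others have none.

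The Dlk1-Meg3 cluster on chromosome 12 contains protein-coding genes expressed from the paternal copy and long non-coding RNAs, hosts of many small RNAs, expressed from the maternal copy. Maternal Meg3 transcripts are often silenced in cultured mouse pluripotent cells, and their presence marks lines of high developmental potential. Meg3, Rian and Mirg were lower in the knockout at all 17 of their probe sets. Of these, 12 passed the test, against 7.43% of all probe sets that fell. The groups did not overlap at 15, against 40.9% of all genes, each read at 1 probe set. The 17 are repeated readings of these genes on the same arrays, so they are not separate results. Mirg measured 8.89, 8.85 and 9.11 (log2) in wild-type cells and 8.26, 8.31 and 8.34 in the knockout (log2 fold change -0.64, SE 0.08, limma adjusted p = 0.00295). Rian measured 11.07, 11.03 and 11.38 in wild-type cells and 10.70, 10.68 and 10.72 in the knockout (-0.46, SE 0.10, adjusted p = 0.026). High values thus remained in both groups. The Rian call ended without knockout replicate 1, 2 or 3 (log2 fold changes -0.46, -0.45 and -0.46, adjusted p of 0.0821, 0.0907 and 0.0802).

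Meg3 was read by 11 probe sets, whose log2 fold changes ran from -0.82 to -0.23, with 7 past the test. The probe set with the highest mean gave 11.56, 11.66 and 12.10 in wild-type cells and 11.30, 11.35 and 11.36 in the knockout. The groups did not overlap, wild-type replicate 3 being the highest array, and the difference did not pass (-0.44, SE 0.14, adjusted p = 0.0872). It passed without wild-type replicate 1 (-0.54, adjusted p = 0.0436). The paternally expressed Dlk1, a transmembrane relative of the Notch ligands, read 4.52, 4.37 and 4.56 in wild-type cells and 4.17, 3.94 and 4.22 in the knockout, all below the array median (log2 fold change -0.37, SE 0.10, adjusted p = 0.0434). That call ended in each fit without 1 array: the log2 fold changes were -0.36, -0.43 and -0.34 without wild-type replicates 1, 2 and 3 and -0.40, -0.29 and -0.43 without knockout replicates 1, 2 and 3, with adjusted p of 0.0848, 0.0607, 0.118, 0.0929, 0.117 and 0.0638 in the same order.

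**Figure D3:**
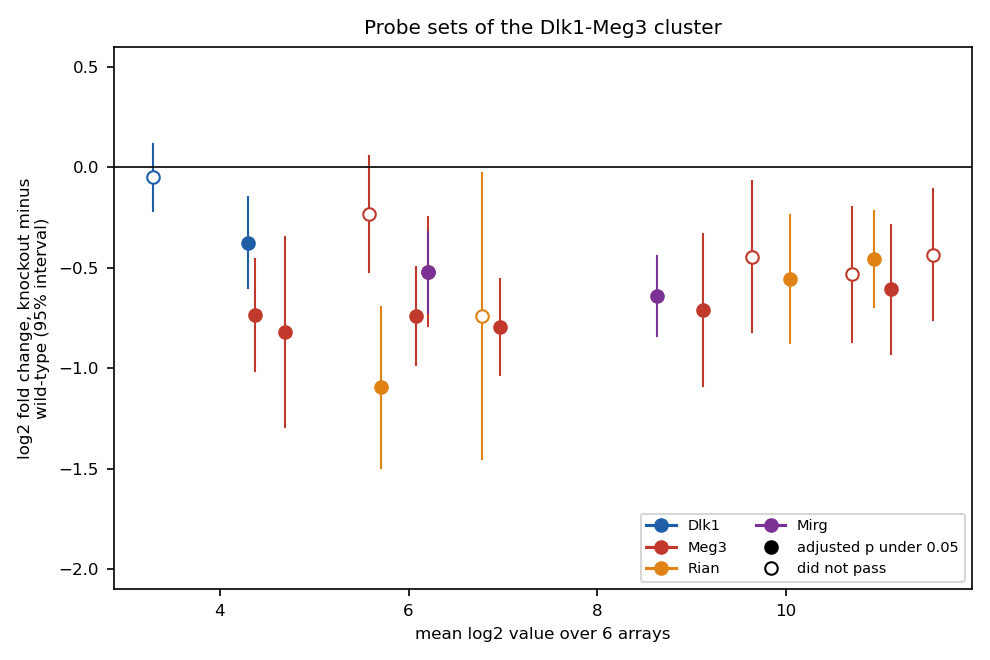
Log2 fold change (knockout minus wild-type, vertical axis) against mean log2 value over the 6 arrays (horizontal axis) for each probe set of Dlk1, Meg3, Rian and Mirg; bars are 95% intervals and filled points passed at an adjusted p under 0.05. All 17 probe sets of Meg3, Rian and Mirg lie below 0, across low and high levels alike.

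The Kcnq1ot1 cluster on chromosome 7 is governed by Kcnq1ot1, a paternally expressed long non-coding RNA that silences its neighbours on the paternal copy. Its members moved apart. Cdkn1c, which encodes an inhibitor of cyclin-dependent kinases, rose, reading 6.84, 6.65 and 6.90 in wild-type cells and 7.47, 7.60 and 7.50 in the knockout (log2 fold change 0.73, SE 0.09, limma adjusted p = 0.00186). Cd81, a tetraspanin gene, fell from 12.02, 11.94 and 12.09 to 11.54, 11.55 and 11.54 (-0.47, SE 0.06, adjusted p = 0.00357). Ascl2, a helix-loop-helix factor gene of trophoblast progenitors, fell from 7.04, 6.92 and 7.003 to 6.59, 6.58 and 6.74 (-0.35, SE 0.07, adjusted p = 0.0206). None of these 3 groups of values overlapped between genotypes. The Ascl2 call ended without wild-type replicate 3 (-0.34, adjusted p = 0.057), knockout replicate 1 (-0.33, adjusted p = 0.0816) or knockout replicate 2 (-0.32, adjusted p = 0.0858). It also ended with the replicate number as a block (adjusted p = 0.0505).

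Kcnq1ot1 itself read 6.95, 7.32 and 7.32 in wild-type cells and 6.77, 6.85 and 6.71 in the knockout at its highest probe set, which did not pass (-0.42, SE 0.11, adjusted p = 0.0506). Leaving out wild-type replicate 1 gave -0.54 (adjusted p = 0.00513). A second probe set passed, falling from 7.05 to 6.50 (adjusted p = 0.00512), and the other 4 did not. The remaining members did not pass: the placental growth regulator gene Phlda2 (log2 fold change 0.12), the transporter gene Slc22a18 (0.03), the oxysterol-binding protein gene Osbpl5 (0.00, at a level near 4) and the histone chaperone gene Nap1l4 (-0.12). Their 95% intervals together ran from -0.26 to 0.34.

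On chromosome 6, the Peg10-Sgce and Mest-Copg2 clusters both held a paternally expressed gene that fell and a maternally expressed gene that rose. Peg10, derived from a retrotransposon and needed in the placenta, read 5.55, 5.58 and 5.28 in wild-type cells and 4.72, 4.73 and 4.43 in the knockout (log2 fold change -0.84, SE 0.12, limma adjusted p = 0.00374). Mest, which encodes a protein of the hydrolase fold, went from 10.97, 10.70 and 10.81 to 10.39, 10.36 and 10.34 (-0.46, SE 0.08, adjusted p = 0.0102). The groups did not overlap for either gene. Copg2, a coatomer subunit gene that lies tail to tail with Mest, rose from 8.11, 7.99 and 7.91 to 8.48, 8.42 and 8.43 (0.44, SE 0.07, adjusted p = 0.00763). Asb4, an ankyrin repeat gene, rose from 2.96, 3.10 and 3.05 to 3.35, 3.55 and 3.40 (0.40, SE 0.08, adjusted p = 0.0166), all below the array median. The Asb4 call ended without knockout replicate 2 (0.34, adjusted p = 0.0607) or 3 (0.41, adjusted p = 0.0551). Sgce, which shares a start region with Peg10, did not pass at 7.16 ± 0.10 and 7.18 ± 0.04 (SD, n = 3 each). Ppp1r9a, the maternally expressed neurabin gene, measured 7.72 ± 0.17 and 8.09 ± 0.11 and did not pass (0.37, adjusted p = 0.0613), while 1 of its other 4 probe sets rose by 0.47 (adjusted p = 0.0441).

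The Snrpn-Ube3a cluster is the mouse counterpart of the region lost in Prader-Willi and Angelman syndromes. Of its 4 paternally expressed members, Magel2 and Snrpn fell, Mkrn3 rose and Ndn did not pass. Magel2, a MAGE family gene, read 4.92, 5.06 and 4.82 in wild-type cells and 4.04, 4.51 and 4.21 in the knockout (log2 fold change -0.68, SE 0.13, limma adjusted p = 0.0138). Snrpn, a splicing protein gene, read 6.32, 6.07 and 6.31 against 5.98, 5.82 and 5.90 (-0.34, SE 0.09, adjusted p = 0.0493) at the 1 probe set annotated to it alone; the 6 it shares with Snurf were not used. Mkrn3, a ubiquitin ligase gene, read 5.83, 5.92 and 5.86 against 6.14, 6.12 and 6.07 (0.24, SE 0.06, adjusted p = 0.0426). These 3 differences were small beside those of Peg3 or Grb10, though no group overlapped. Ndn, also of the MAGE family, read 8.17 ± 0.10 and 8.10 ± 0.04 (SD, n = 3 each), and none of its 8 probe sets passed. Ube3a, a ubiquitin ligase gene imprinted in neurons, read 9.22, 10.30 and 10.36 in wild-type cells and 10.18, 10.05 and 10.03 in the knockout, with wild-type replicate 1 far below the rest.

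Of these calls, that of Magel2 ended without wild-type replicate 2 (-0.62, adjusted p = 0.0569) or knockout replicate 3 (-0.66, adjusted p = 0.056). The Snrpn call ended without wild-type replicate 1 or 3 (-0.29 and -0.30, adjusted p of 0.0964 and 0.128) and without knockout replicate 1, 2 or 3 (-0.37, -0.30 and -0.34, adjusted p of 0.0898, 0.162 and 0.137). It also ended with quantile normalization (-0.31, adjusted p = 0.0755), with array centring (-0.33, adjusted p = 0.0616) and with the replicate block (adjusted p = 0.054). The Mkrn3 call ended without wild-type replicate 1, 2 or 3 (0.22, 0.27 and 0.24, adjusted p of 0.069, 0.0693 and 0.09), without knockout replicate 1, 2 or 3 (0.23, 0.24 and 0.26, adjusted p of 0.144, 0.14 and 0.101) and with the replicate block (adjusted p = 0.116).

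Impact, Commd1 and Slc38a4 rose. Impact, whose product restrains a stress kinase that slows translation, read 10.55, 10.83 and 10.78 in wild-type cells and 11.36, 11.30 and 11.29 in the knockout (log2 fold change 0.59, SE 0.09, limma adjusted p = 0.0048). Its probe sets disagreed: another rose by 0.93 (adjusted p = 0.00526), and the last fell by 1.08, from 7.24 to 6.15 (adjusted p = 0.000779), so the direction for Impact depends on the probe set. Averaged over its probe sets it was 0.15 (adjusted p = 0.162). Commd1, a gene of copper handling that is biased to the maternal copy in brain, rose from 10.65, 10.62 and 10.63 to 11.02, 11.13 and 11.05 (0.44, SE 0.06, adjusted p = 0.004), and its other probe set rose by 0.48. Slc38a4, a paternally expressed amino acid transporter gene, rose from 9.25, 9.13 and 9.26 to 9.55, 9.51 and 9.53 (0.32, SE 0.06, adjusted p = 0.0183), and its other probe set rose by 0.97 (adjusted p = 0.00069). The first Slc38a4 call ended without wild-type replicate 2 (0.28, adjusted p = 0.0553), without knockout replicate 1, 2 or 3 (0.31, 0.33 and 0.32, adjusted p of 0.074, 0.0644 and 0.0726) and with the replicate block (adjusted p = 0.057).

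Among the 20 genes that did not pass, log2 fold changes ran from -0.44 for Meg3 to 0.37 for Ppp1r9a, 4 were below the array median in both groups, and the 95% interval excluded a 2-fold change for 19. The exception was Zdbf2, a zinc finger gene switched on from the paternal copy, at 7.89, 9.99 and 9.82 in wild-type cells and 9.30, 9.12 and 9.15 in the knockout. Without wild-type replicate 1, its low array, Zdbf2 passed at -0.71 (SE 0.09, adjusted p = 0.00484). Inpp5f, a phosphoinositide phosphatase gene, and Trappc9, a vesicle trafficking gene, gave -0.23 and 0.23, and passed in the fit without that array (-0.30, adjusted p = 0.0346, and 0.32, adjusted p = 0.0395). Gnas, which encodes the stimulatory G protein subunit, gave 0.19 and Rasgrf1, a Ras exchange factor gene at a level near 3, gave -0.13.

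By expressed allele, 10 of 20 measured paternally expressed genes fell and 3 rose, with a median log2 fold change of -0.36. Of 18 maternally expressed genes, 4 fell and 4 rose, with a median of 0.08. Of all genes, 10.4% fell and 8.53% rose, with a median of 0.02. Counted by probe set, the allele classes were alike. For paternally expressed genes 14 of 53 probe sets fell and 5 rose. For maternally expressed genes 15 of 49 fell and 6 rose, and 7 of those 15 belong to Meg3, which did not pass at its highest probe set. Of all probe sets, 7.43% fell and 6.69% rose. Some fits that left out an array ended the calls of Usp29, Dlk1, Snrpn, Magel2, Mkrn3 and Slc38a4 among the paternally expressed genes. Such fits also ended those of Rian, Ascl2 and Asb4 among the maternally expressed genes. Of the 4 genes put in a separate class, as their imprinted allele depends on tissue or isoform (Blcap, Grb10, Ddc and Gnas), Grb10 rose and the others did not pass. Ube3a, imprinted in neurons, and Commd1, biased to the maternal copy in brain, were counted as maternally expressed. The classes therefore do not show which genes are imprinted in ES cells. The difference between the allele classes was not tested. Reading each gene as the mean of its probe sets gave medians of -0.21 and 0.01. The spread between wild-type arrays was larger than that between knockout arrays for 32 of the 42 genes (76.2%), against 69.1% of all genes.

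The 5 nearest measured genes on each side of the 13 clusters with a gene past the test, listed imprinted genes left out, came to 125 different genes, of which 19 rose and 4 fell, 18.4% in all against 18.9% of all genes. By direction, 15.2% rose against 8.53% of all genes and 3.2% fell against 10.4%; these differences were not tested. Their median log2 fold change was 0.02. Around Peg3 the flanking genes ran from -0.25 to 0.49 and around Grb10 from -0.16 to 0.45. Around Igf2 and around the Kcnq1ot1 cluster, none of the 10 flanking genes passed (limma, adjusted p under 0.05), and around the Dlk1-Meg3 cluster 1 rose and none fell.

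The 10 flanking genes with the largest changes past the test lay beside several clusters. Impact had the most of them: Ttc39c fell (log2 fold change -2.14, SE 0.18, limma adjusted p = 0.000413), with a knockout mean of 3.66 below the array median, while Osbpl1a on the same side rose by 0.92 (adjusted p = 0.000198) and the zinc finger gene Zfp521 on the other side by 0.73. Podxl, a sialomucin gene beyond Mest and Copg2, fell (-1.30, SE 0.09, adjusted p = 0.000214), and Cep41 on the other side of that pair rose by 0.58. Tgm2, a transglutaminase gene beside Nnat, had a log2 fold change of -0.84. Chrna7, an acetylcholine receptor gene beside the Snrpn-Ube3a cluster, rose by 0.72, and Pdk4, a pyruvate dehydrogenase kinase gene beside the Peg10-Sgce cluster, by 0.64. Utrn and Phactr2, on either side of Plagl1, rose by 0.66 and 0.51 where Plagl1 itself fell. Of 7 genes inside the Kcnq1ot1 cluster that are not on the list, 2 rose and none fell, against 8.53% and 10.4% of all genes. These were Cars, by 0.47, and the receptor gene Tnfrsf22, reported as imprinted in placenta, by 0.71.

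**Figure D4:**
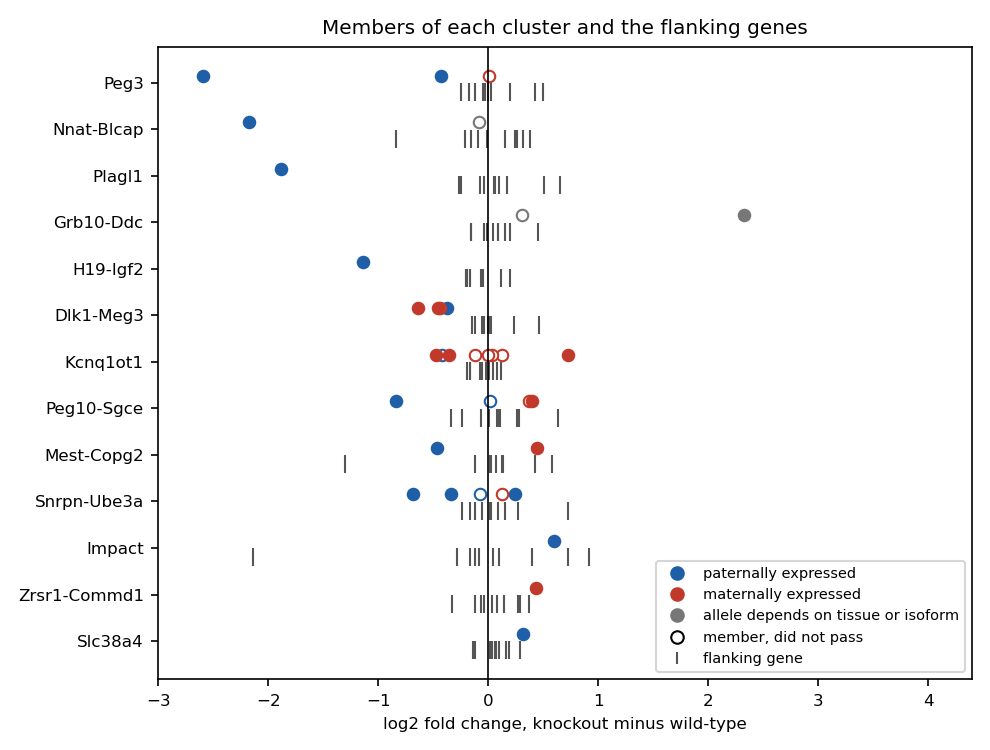
Log2 fold change (knockout minus wild-type, horizontal axis) of the imprinted genes (circles, coloured by expressed allele, filled where past the test) and of the 5 nearest measured genes on each side (vertical ticks) for the 13 clusters with a gene past the test. Peg3, Nnat, Plagl1, Grb10 and Igf2 lie outside the range of their flanking genes, while a flanking tick near -2.14 stands beside Impact.

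The proteins that set and keep imprints were examined as a further list of 25 genes, 24 of them measured. Of these, 3 rose, none fell and 21 did not pass, with a median log2 fold change of 0.08. The share called was 12.5%, against 18.9% of all genes, and the share that rose was 12.5%, against 8.53%. Dnmt3l, which encodes a cofactor of DNA methyltransferases, rose from 12.19 ± 0.02 to 12.56 ± 0.01 (SD, n = 3 each; log2 fold change 0.37, SE 0.06, limma adjusted p = 0.00612), and the methyltransferase genes Dnmt3a by 0.30 (adjusted p = 0.0241) and Dnmt3b by 0.25 (adjusted p = 0.0459). The imprint-protecting gene Zfp57 measured 7.73 ± 0.11 and 7.59 ± 0.05, its partner Trim28 13.14 ± 0.06 and 13.19 ± 0.03, and the maintenance methyltransferase gene Dnmt1 had a log2 fold change of -0.04; none of these passed. Zfp445, a relative in imprint protection, read 9.02, 9.95 and 9.97 in wild-type cells and 10.22, 10.14 and 10.14 in the knockout and did not pass (0.52, adjusted p = 0.229), wild-type replicate 1 being the low array.

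A second list held 38 further genes reported as imprinted in some mouse tissue or cross, 30 of them measured and 14 below the array median in both groups. Of these, 4 rose and 3 fell, or 23.3%, near the 18.9% of all genes, and the median log2 fold change was 0.06. The highest fold change among them was that of Pon2, a paraoxonase gene of the Peg10 region on chromosome 6, which read 6.29, 6.29 and 6.20 in wild-type cells and 7.30, 7.12 and 7.19 in the knockout (log2 fold change 0.94, SE 0.07, limma adjusted p = 0.000277). Smoc1, Herc3 and Mcts2 rose by 0.30, 0.29 and 0.26. Gatm, for the first enzyme of creatine synthesis, had a log2 fold change of -1.12 with both group means below the array median, the flippase gene Atp10a one of -0.74 and the Polycomb-related gene Sfmbt2 one of -0.47.

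Markers of other cell types were read on the same arrays. Over all genes, 10.4% fell and 8.53% rose. Besides the endoderm markers given above, 4 of 12 trophoblast markers fell and none rose. These were the keratin genes Krt8 (log2 fold change -2.52), Krt7 (-1.91) and Krt18 (-1.67) and the placental gene Plac1 (-0.90). The others did not pass: Cdx2 (-0.27), Eomes (0.41), Elf5 (0.05), Hand1 (-0.06), Tfap2c (0.16), Gata3 (-0.10), Tpbpa (0.08) and Esx1 (-0.11). The mean level of the list was 6.08 to 6.23 on the wild-type and 5.55 to 5.59 on the knockout arrays. The fibroblast list, which stands for feeder cells, had 4 of 11 lower and 1 higher, with 6 below the array median in both groups and a mean level of 4.80 to 4.81 against 4.58 to 4.62. The neural list had 3 of 8 lower and 1 higher (5.22 to 5.41 against 5.05 to 5.11). The part of any of these cells in the values of the imprinted genes was not tested. X-linked genes above the median level had a median log2 fold change of 0.00, against 0.02 for autosomal genes.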

How the data were processed

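RNA from 3 wild-type and 3 Med23 knockout ES cell cultures was hybridised as biotinylated cRNA to Affymetrix arrays, per the labels' protocols. The authors deposited log2 values that they had summarised per probe set. The unit was read from their range, since neither log base nor centring is stated. RMA and MAS5 are named per the submitters' processing notes, with no role or version. Array medians lay between 4.61 and 4.64, and the values were used as deposited. The number of arrays limits the precision; low values may include background, since no detection calls entered.

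Of 45101 probe sets, 64 controls were left out. The platform annotation gave 34945 probe sets 1 symbol, 932 several and 9160 none; 34741 were matched by Entrez identifier to RefSeq (GRCm38.p6) for symbols and gene order. There were 0 columns of other samples. Differences were fitted with limma 3.58.1 in R 4.3.3 (lmFit, eBayes, 4 residual and 3.08 prior degrees of freedom), two-sided. P-values were adjusted by the Benjamini-Hochberg method across the 45037 probe sets, with a threshold of 0.05. Intervals are 95% from the moderated fit. The script was tested on simulated data, where the fit recovered 50% of changes of 0.5 (log2) and 96% of changes of 1. A gene that did not pass is therefore not shown to be unchanged. Promoter windows came from RefSeq tables of the same build.

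The imprinted genes, lists and tests were chosen with earlier results of these data known. Every imprinted gene past the test is given with all arrays. Of the rest, those with another probe set past the test, the 5 highest by mean level and cluster partners of called genes are named. Regulators and neighbours are named where they passed, at most 10 of each by size. Igf2r, Airn, Zfp57, Trim28, Dnmt1, Zfp445, Zdbf2, Inpp5f, Trappc9 and Rasgrf1 fall outside this rule and were chosen after their values were seen. Alternatives were quantile normalization, median centring, a filter on dim probe sets, a variance trend, array weights, the replicate number as a block, other probe set rules and leaving out each array.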

Additional observations from a re-analysis of the deposited data

How the results depend on the processing

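Of the 22 genes past the test, 11 kept the call under every alternative that could be run for them and 13 kept it in all 6 fits without 1 array. The direction reversed in 1 case: with only plain _at probe sets, Plagl1 was read at another, dim probe set and its log2 fold change was 0.15 (adjusted p = 0.301). That rule gave no value for Nnat, Grb10, Copg2 and other genes with no such probe set. Leaving out 1 array gave 5 to 8 genes higher and 9 to 16 lower, and 8 to 13 probe sets higher and 18 to 36 lower; the cause was not tested. The median log2 fold change of maternally expressed genes (0.08) was 0.121 without dim probe sets, 0.0342 with array weights, 0.0069 with the mean of all probe sets of a gene and 0.0344 to 0.083 over the fits without 1 array. That of paternally expressed genes (-0.36) was -0.21 with the mean of all probe sets, and -0.39 to -0.29 without 1 array. The cause of these shifts was not tested. Averaging probe sets also ended the calls of Usp29, Dlk1, Asb4 and Impact, plain _at probe sets those of Dlk1 and Ascl2, the variance trend those of Dlk1, Snrpn and Mkrn3, and array weights those of Dlk1 and Snrpn.

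With the replicate number as a block, 6 genes rose and 12 fell, and over all probe sets 1915 rose and 2678 fell against 3013 and 3346 without it. Same-numbered arrays did not deviate together (correlations of -0.13, -0.06 and 0.00), which gives no sign that the numbers pair the samples. With so few arrays per group, and a wild-type array that stood apart, a small shared effect could be missed. Pairing is therefore not excluded.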
